A study of Mus musculus with 10 samples.

Results

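The genes described here are 36 genes of blood and lymphatic vessels that were chosen by name: markers of endothelial cells, the vascular endothelial growth factor (VEGF) and angiopoietin ligands and receptors, the Notch and apelin genes of sprouting vessels, and a pair of lymphatic genes. All 36 were found among the 24306 genes of the deposited count table, and all 36 passed the filter on low counts in every comparison. The data are polyA RNA-seq of whole ovaries from 6-week-old mice of mixed strain (C57BL/6 and 129), in 10 libraries and 3 groups. Every ovary was Rara f/f, Rarb f/f and Rarg f/f, that is, with floxed copies of all retinoic acid receptor genes. Controls (n = 5) were Dmrt1 +/+ and Sf1-Cre-, Rar mutants (n = 3) were Dmrt1 +/+ and Sf1-Cre+, and Dmrt1 het Rar mutants (n = 2) were Dmrt1 fl/+ and Sf1-Cre+. The Sf1 (Nr5a1) promoter drives Cre in somatic cells of the gonad such as granulosa and theca cells. The comparison asks how vessel genes stand in ovaries in which Cre under this promoter could act on the receptor genes. The design text of the series counts 5 replicates in each of 2 genotypes, so the 5 Cre-positive ovaries were also pooled and are called Rar-deleted.

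The ovary is among the few adult tissues in which vessels grow and regress in every cycle. Granulosa and luteal cells release Vegfa, which acts on endothelial cells through the receptor Kdr, while Angpt1 from perivascular cells activates the receptor Tek and Angpt2 from endothelium counters it as vessels are remodelled. The ligand Dll4 acts through Notch receptors to restrain sprouting, and apelin, a peptide of sprouting tip cells, acts on the receptor Aplnr. Prox1 sets lymphatic endothelial fate and Lyve1 is a hyaluronan receptor of lymphatic endothelium that some tissue macrophages also carry.

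Total counts were 21064856 to 25920131 per library, so that a count of 0 would allow up to 3 counts, or 0.116 to 0.142 CPM (counts scaled to a fixed library total), for counting error only. The floxed receptor gene Rarg was at 24.4 to 32.8 CPM in controls, at 14.9 to 19.3 in Rar mutants and at 20.5 to 22.1 in Dmrt1 het Rar mutants, without overlap. Rara and Rarb overlapped between groups, and whole-gene counts also hold reads from exons outside the floxed part and from cells without Cre. Dmrt1 was at 0 in controls and Rar mutants and at 0 to 0.221 CPM in Dmrt1 het Rar mutants, so its allele could not be checked by level. Granulosa markers (summed level of 10 genes, 2528 to 7580 CPM) and oocyte markers (10 genes, 205 to 711 CPM) were present in all 10 libraries, and so was the endothelial surface set (10 genes, 236 to 393 CPM). The sample titles carry numbers, and 4 libraries have a number under 7800: both of the Dmrt1 het group, control 1 and Rar mutant 1. They differed from the other 6 in many genes. The labels do not say what the numbers stand for. Rar mutant 3 stood apart in ovulation genes, whose summed level over 9 genes was 2474 CPM there, 64.7 in Rar mutant 2 and 8.85 to 19.7 in the other libraries.

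Retinoic acid receptors bind repeats of the half-site AGGTCA, so the 250 bases before each RefSeq start (build GRCm38.p6) were searched for these letters on both strands. RefSeq windows were matched for 20 of the 36 genes, 27 windows in all, and 5 of them (18.5%) held a match, beside 14.0% of the 32851 windows of all genes. The windows with a match belong to Egfl7, Nrp1, Robo4 and Erg with 1 match each and to Emcn with 2. The windows of 2 genes are shown because these genes had the smallest edgeR p of the 36 in a comparison below: that of Cldn5, below every control in every Rar-deleted ovary and without a match, at chr16:18776597-18776846 (plus strand), and that of Emcn, below all other libraries in the Dmrt1 het Rar mutants, at chr3:137340828-137341066 (plus strand), here ended before the annotated start. Capitals mark the half-site or its reverse complement TGACCT. A match describes these letters only.
Cldn5: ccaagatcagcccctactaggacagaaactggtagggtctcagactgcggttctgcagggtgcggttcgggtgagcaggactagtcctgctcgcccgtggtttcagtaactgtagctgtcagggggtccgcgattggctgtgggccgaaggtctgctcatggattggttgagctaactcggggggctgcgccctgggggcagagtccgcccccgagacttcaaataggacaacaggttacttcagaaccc
Emcn: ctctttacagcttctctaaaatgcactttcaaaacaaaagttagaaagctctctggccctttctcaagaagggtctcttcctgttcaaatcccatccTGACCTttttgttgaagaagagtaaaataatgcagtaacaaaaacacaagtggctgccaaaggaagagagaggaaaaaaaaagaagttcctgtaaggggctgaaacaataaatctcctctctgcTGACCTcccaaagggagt

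In control ovaries, vessel genes spanned a wide range of levels per transcript length, given here as the authors' FPKM (mean ± SD over 5 controls). The most abundant was Cldn5, the main tight junction protein of endothelium, at 24.5 ± 2.26 FPKM. The growth factor Vegfa followed at 21.5 ± 4.17, then the TGF-beta co-receptor Eng at 16.0 ± 2.05 and the transcription factor Sox18 at 14.8 ± 1.99. The adherens junction cadherin Cdh5 (13.5 ± 4.03), the adhesion molecule Esam (13.1 ± 1.20), Angpt2 (11.2 ± 3.33) and the secreted vessel factor Egfl7 (10.9 ± 0.703) lay within their spreads of their neighbours in this order. The median of the 36 genes was 4.86 FPKM. By role, the median was 8.18 FPKM for the 10 junction and surface genes, 5.56 for the 4 angiopoietin and Tie genes, 4.26 for the 5 VEGF receptors and co-receptors, 3.91 for the 4 Notch and apelin genes and 2.13 for the 4 transcription factors. Kdr (5.47 ± 1.47), the main signalling VEGF receptor, stood above Flt1 (1.56 ± 0.340), the VEGF receptor that also serves as a decoy. The lowest were Notch4 (1.05 ± 0.189), placental growth factor Pgf (0.927 ± 0.215), the clotting protein gene Vwf (0.737 ± 0.241) and Prox1 (0.691 ± 0.278). Apln had the widest spread of the 36 relative to its mean, 8.19 ± 4.72 FPKM.

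**Figure D1:**
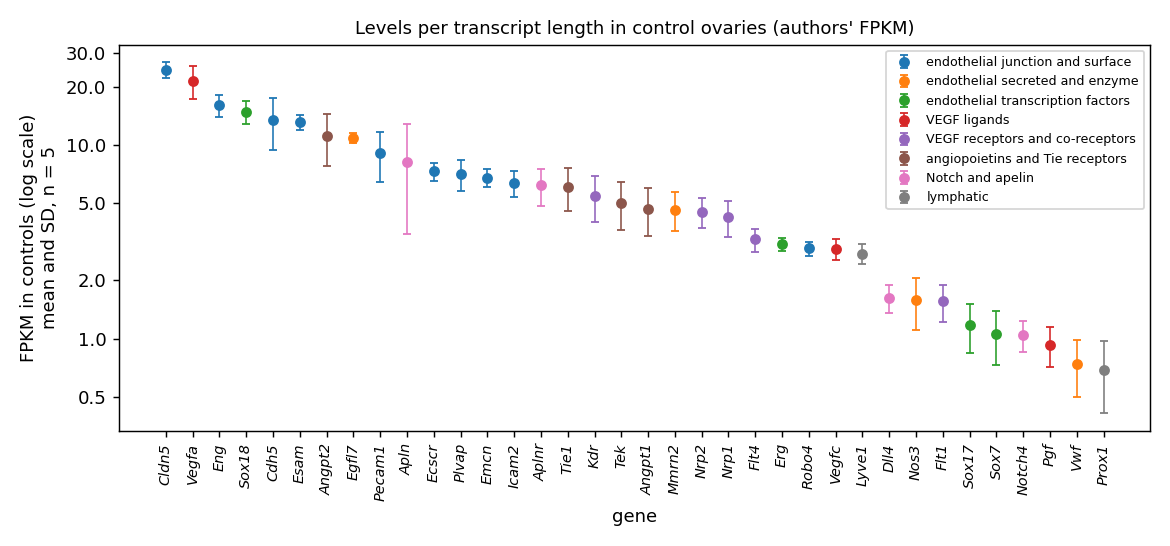
Mean level of each of the 36 genes in the 5 control ovaries as the authors' FPKM on a log axis, ordered from high to low, with bars for SD and colours for role. Levels run from 24.5 FPKM for Cldn5 to 0.691 for Prox1, and the junction and surface genes lie mostly in the upper part.

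Some libraries were high or low for many of the 36 genes. Control 1 was the highest of the 5 controls for 18 of the 36 genes, and control 3 was the lowest for 17. Rar mutant 3 was the lowest of the 3 Rar mutants for 19 genes, and Dmrt1 het Rar mutant 1 was below Dmrt1 het Rar mutant 2 for 29. In whole-ovary RNA, fewer vessel cells and less RNA per vessel cell cannot be told apart.

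Each of 4 comparisons was made with edgeR's quasi-likelihood test over all genes, and a gene passed when its p, adjusted by Benjamini and Hochberg's method, was under 0.05. None of the 36 genes passed it in any of the 4. In Rar-deleted ovaries against controls the smallest adjusted p of the 36 was 0.0602, and 21 of 18954 genes passed overall (0.111%). Unadjusted p was under 0.05 for 7 of the 36 (3 higher, 4 lower), beside 8.47% of all genes. DESeq2, run as an alternative, called 2 of the 36, Lyve1 higher and Cldn5 lower, beside 0.745% of all genes. Levels of Rar-deleted and control ovaries did not overlap for 3 of the 36 (Cldn5 and Egfl7 below, Lyve1 above), beside 1.78% of all genes. Of the 36 log2 fold changes 25 were negative and 11 positive, with a median of -0.13, where the median over all genes was 0.00.

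In the 3 Rar mutants against controls, the smallest adjusted p of the 36 genes was 0.106 by edgeR, which called 2 of 20570 genes (0.00972%). There, 4 of the 36 had an unadjusted p under 0.05 (2 higher, 2 lower), beside 9.45% of all genes. DESeq2 again called Lyve1 higher and Cldn5 lower, beside 1.74% of all genes, and the groups did not overlap for the same 3 genes as above, beside 5.17%. The median log2 fold change was -0.10, and -0.02 over all genes.

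In the 2 Dmrt1 het Rar mutants against controls, the smallest adjusted p by edgeR was 0.209, with 4 of 20570 genes called (0.0194%). Here 10 of the 36 had an unadjusted p under 0.05 (3 higher, 7 lower), beside 17.3% of all genes. Groups did not overlap for 9 of the 36, beside 28.5% of all genes, a share near that background. DESeq2 called Icam2, Cldn5 and Emcn lower, beside 1.78% of all genes. The median log2 fold change was -0.19, and -0.02 over all genes.

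Dmrt1 het Rar mutants against Rar mutants gave no call by edgeR among the 36 (smallest adjusted p 0.195) or among all 20570 genes (0%). Unadjusted p was under 0.05 for 4 of the 36, all lower in the Dmrt1 het Rar mutants, beside 16.9% of all genes, and DESeq2 called Emcn and Ecscr lower, beside 3.66%. The 3 comparisons with controls use the same 5 control libraries, and the pooled one holds the libraries of both others, so their values are set side by side below and are not independent.

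**Figure D2:**
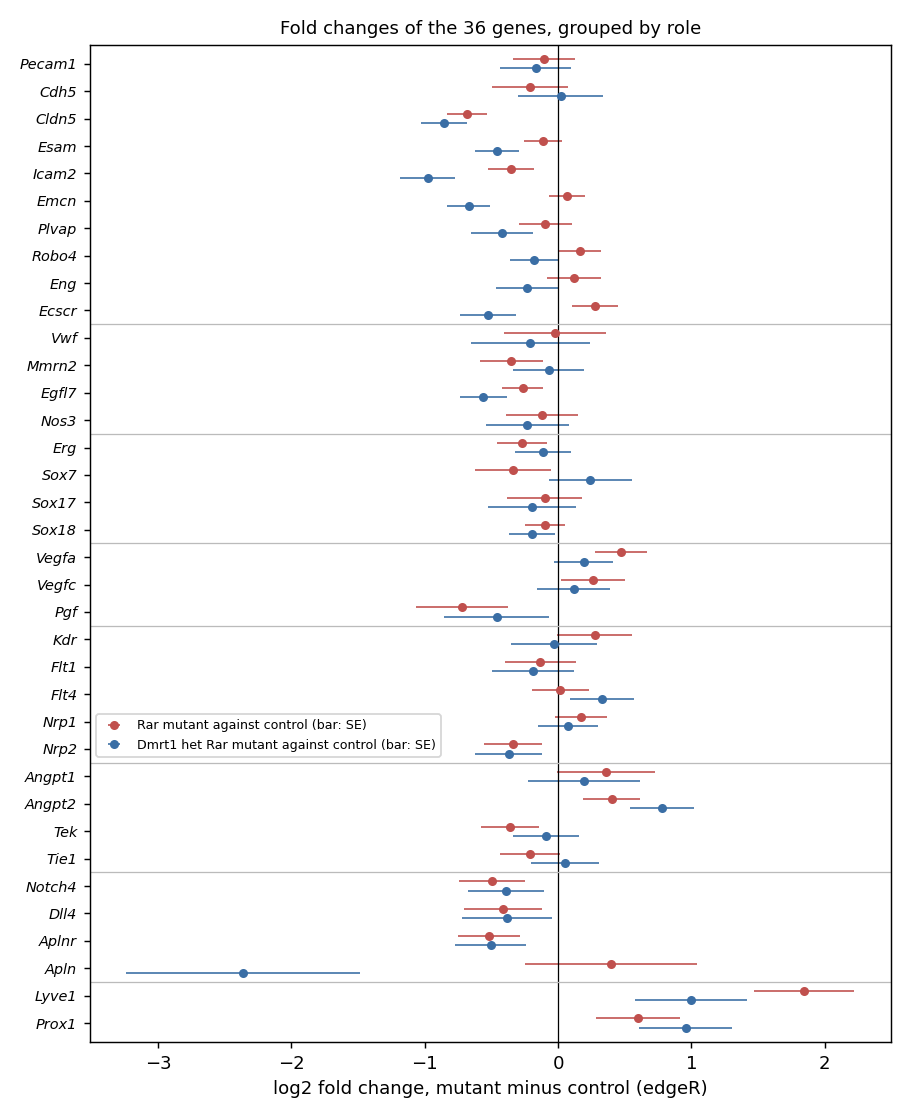
Log2 fold change of each gene by edgeR, Rar mutant against control in red and Dmrt1 het Rar mutant against control in blue, with bars for SE and grey lines between roles. Cldn5 lies left of 0 in both comparisons, Icam2, at -0.98, lies farthest left of the surface genes in the Dmrt1 het Rar mutants, and Lyve1 lies right of 0 in both.

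The 10 junction and surface genes hold endothelial cells together and face the blood. In Rar-deleted ovaries 8 of 10 log2 fold changes were negative, with a median of -0.15. In the Dmrt1 het Rar mutants 9 of 10 were negative with a median of -0.44. There 5 had an unadjusted p under 0.05, beside 17.3% of all genes. In Rar mutants 6 of 10 were negative with a median of -0.10. The summed level of the 10 genes was 290 to 393 CPM in controls, 292 to 353 in Rar mutants and 236 to 314 in Dmrt1 het Rar mutants, so the groups overlapped as a sum.

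Cldn5 (ENSMUSG00000041378, chromosome 16, 18776847 to 18778262, GRCm38), the claudin that seals endothelial tight junctions, was the gene of the 36 with the smallest p. Its level was 34.5, 33.0, 40.6, 32.6 and 33.8 CPM in controls 1 to 5. It was 20.9, 24.3 and 19.95 CPM in Rar mutants 1 to 3 and 16.6 and 22.3 CPM in Dmrt1 het Rar mutants 1 and 2. Every Rar-deleted ovary lay below every control. The fold change in Rar-deleted ovaries was 1.68-fold lower (log2 -0.75, SE 0.129, edgeR adjusted p = 0.0602), just short of the threshold, and DESeq2 gave an adjusted p of 4.49e-05. Against controls it was -0.68 (SE 0.148, edgeR adjusted p = 0.120) in Rar mutants and -0.86 (SE 0.174, edgeR adjusted p = 0.209) in Dmrt1 het Rar mutants. Among the 6 libraries of higher title number alone, 2 Rar mutants against 4 controls, it was -0.66 (SE 0.161, edgeR adjusted p = 0.115). Without control 1, the value in Dmrt1 het Rar mutants was -0.86 with an edgeR adjusted p of 0.0483. Control 1 is the only control with a lower title number. Dropping another control gave an edgeR adjusted p of 0.207 to 0.424, and dropping a Rar mutant 0.163 to 0.277. Leaving out library 1 or 2 of this group gave log2 values of -0.65 and -1.07. With the title-number set as a term the value was -0.81 (edgeR adjusted p = 0.587). In Rar-deleted ovaries the edgeR adjusted p was 0.0636 to 0.180 with any 1 library left out.

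Icam2 (ENSMUSG00000001029, chromosome 11, 106377656 to 106388075), an adhesion ligand for leukocytes at endothelial contacts, was at 12.2, 8.90, 12.9, 14.0 and 12.9 CPM in controls 1 to 5. Rar mutants were at 8.98, 10.2 and 9.44 CPM, and Dmrt1 het Rar mutants were at 6.34 and 6.10. The Dmrt1 het Rar mutants lay below all other libraries, while Rar mutants overlapped with control 2. The log2 fold change was -0.57 in Rar-deleted ovaries (SE 0.191, edgeR adjusted p = 0.506) and -0.98 in Dmrt1 het Rar mutants against controls (SE 0.209, edgeR adjusted p = 0.209; DESeq2 adjusted p = 0.00187). Between the 2 mutants it was -0.63 (SE 0.221, edgeR adjusted p = 0.240).

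Emcn (ENSMUSG00000054690, chromosome 3, 137341067 to 137432185) encodes endomucin, a sialomucin of capillary and venous endothelium. Its levels were 34.0, 34.2, 36.7, 43.6 and 36.4 CPM in controls and 33.5, 42.1 and 40.8 CPM in Rar mutants. In Dmrt1 het Rar mutants they were 22.7 and 24.1 CPM, below all 8 other libraries. Against controls the log2 difference came to -0.67 (SE 0.160, edgeR adjusted p = 0.243; DESeq2 adjusted p = 0.0130), and against Rar mutants it was -0.74 (SE 0.173, edgeR adjusted p = 0.195; DESeq2 adjusted p = 0.00654). Without Rar mutant 1 the edgeR adjusted p of the latter was 0.0478. It was 0.421 without Rar mutant 2, 0.282 without Rar mutant 3 and 0.120 to 0.308 without 1 of the controls. The log2 difference was -0.70 and -0.78 without Dmrt1 het Rar mutant 1 and 2. With the title-number set as a term it was -0.58 (edgeR adjusted p = 0.432).

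Ecscr (ENSMUSG00000073599, chromosome 18, 35713086 to 35722356), a surface protein of endothelial migration, was also lowest in the Dmrt1 het Rar mutants. It was at 11.5, 12.4, 11.9, 14.6 and 11.4 CPM in controls, at 11.5, 15.2 and 18.3 in Rar mutants and at 8.42 and 8.88 in Dmrt1 het Rar mutants. The other groups overlapped. The log2 difference between Dmrt1 het Rar mutants and Rar mutants was -0.80 (SE 0.226, edgeR adjusted p = 0.206; DESeq2 adjusted p = 0.0340). With the title-number set as a term it was -0.57 (edgeR adjusted p = 0.524). Against controls the log2 difference was -0.53, and -0.27 with the title-number set as a term.

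Both Dmrt1 het Rar mutants belong to the set of lower title numbers, which holds only 1 control. In that set Emcn was at 34.0 CPM in control 1, 33.5 in Rar mutant 1 and 22.7 and 24.1 in the Dmrt1 het Rar mutants, and Icam2 at 12.2, 8.98, 6.34 and 6.10. With the title-number set as a term, the difference from controls in Dmrt1 het Rar mutants was -0.48 for Emcn (SE 0.157, edgeR adjusted p = 0.726). It was -0.93 for Icam2 (SE 0.243, edgeR adjusted p = 0.630). Markers of the ovarian surface epithelium also moved with this group: their summed level over 10 genes was 164 to 196 CPM in Dmrt1 het Rar mutants, 247 to 437 in Rar mutants and 260 to 539 in controls. Krt19, a keratin of that layer, was at 10.7 and 12.7 CPM there and at 25.7 to 84.9 in controls. Control 1 and Rar mutant 1, of the same title-number set, were the lowest of their groups for these markers, at 259.9 and 246.5 CPM summed. The part of these cells and of the title numbers in the result was not tested.

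The other 6 surface genes were not among those of smallest p in a genotype comparison. Pecam1, the platelet and endothelial adhesion molecule used as a general vessel marker, was at 39.6 to 83.6 CPM in controls (median 57.2) and 40.2 to 62.0 in Rar-deleted ovaries (median 51.7), and Cdh5 at 34.2 to 82.8 (median 56.5) and 33.0 to 69.3 (median 50.5). Neither separated the groups. Esam, chosen for mention after its values were seen, was at 33.1 to 42.8 CPM in controls and at 23.01 and 32.4 in Dmrt1 het Rar mutants, a log2 difference of -0.46 (SE 0.166, edgeR adjusted p = 0.246). The fenestral diaphragm gene Plvap (10.7 to 17.9 CPM in controls, 8.88 to 15.4 in Rar-deleted ovaries), the guidance receptor Robo4 (14.5 to 17.7 and 12.4 to 20.1) and Eng (52.4 to 73.1 and 38.5 to 80.8) overlapped throughout.

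**Figure D3:**
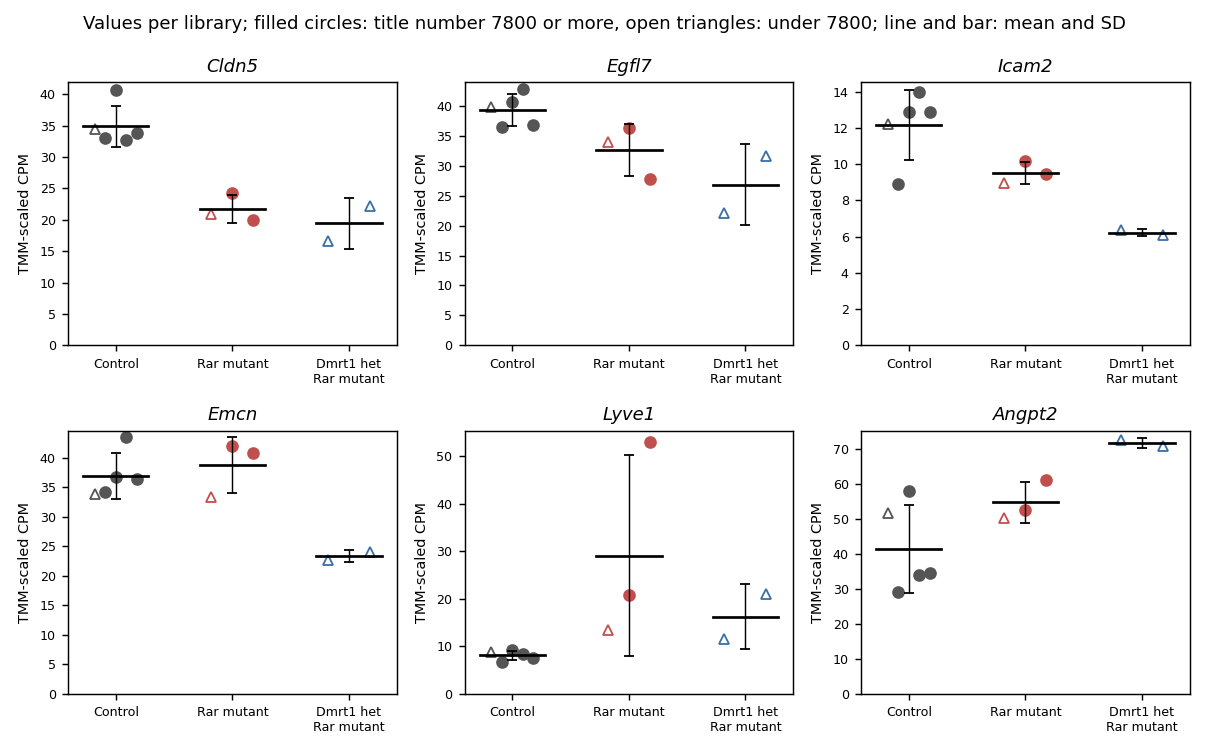
TMM-scaled CPM per library for Cldn5, Egfl7, Icam2, Emcn, Lyve1 and Angpt2, by group, with a line for the mean and a bar for the SD (5 controls, 3 Rar mutants, 2 Dmrt1 het Rar mutants), and open triangles for title numbers under 7800. Every Rar-deleted ovary lies below every control for Cldn5 and above every control for Lyve1, and Emcn is low in the 2 Dmrt1 het Rar mutants at 22.7 and 24.1 CPM.

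Of the 4 secreted and enzyme genes, all 4 had negative log2 fold changes in Rar-deleted ovaries, with a median of -0.19. Egfl7 (ENSMUSG00000026921, chromosome 2, 26580014 to 26593120), a factor secreted by endothelium during tube formation, was the one whose groups did not overlap, and was singled out for that. It was at 39.8, 36.4, 40.6, 42.8 and 36.9 CPM in controls, at 34.0, 36.2 and 27.8 in Rar mutants and at 22.1 and 31.6 in Dmrt1 het Rar mutants. The gap between the groups was small, since the highest Rar-deleted ovary was at 36.2 and the lowest control at 36.4 CPM. On the log2 scale the difference was -0.37 (SE 0.141, edgeR adjusted p = 0.551). Vwf, Mmrn2, a matrix glycoprotein of vessels, and Nos3, the endothelial nitric oxide synthase, overlapped between groups. Log2 fold changes over the 4 genes ran from -0.37 to -0.09.

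The transcription factors Erg, Sox7, Sox17 and Sox18, which set and maintain endothelial identity, had log2 fold changes of -0.20 to -0.07 in Rar-deleted ovaries, all 4 negative and none with an unadjusted p under 0.05. Sox18 was at 19.4 to 28.4 CPM in controls and 19.7 to 24.3 in Rar-deleted ovaries, and Erg at 9.90 to 12.1 and 7.47 to 12.1.

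Among the ligands of the VEGF family, Vegfa (ENSMUSG00000023951, chromosome 17, 46016993 to 46032369) was at 95.5, 115, 65.8, 94.9 and 91.8 CPM in controls 1 to 5. It was at 154, 102 and 130 CPM in Rar mutants and at 94.3 and 119 in Dmrt1 het Rar mutants. All 5 Rar-deleted ovaries were above the control mean of 92.7, but the groups overlapped. The log2 fold change was 0.47 in Rar mutants (SE 0.192, edgeR adjusted p = 0.462). It was 0.33 among the 6 higher title numbers alone. The lymphatic growth factor Vegfc was at 6.41 to 8.26 CPM in controls and 6.43 to 12.3 in Rar-deleted ovaries, the highest being Rar mutant 3. Pgf was at 0.922 to 1.77 CPM in controls and 0.601 to 1.37 in Rar-deleted ovaries.

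Beside Vegfa, the genes of the response to low oxygen were given as a list of 17. In Rar mutants 15 of the 17 had positive log2 fold changes with a median of 0.33. Of the 17, 6 had an unadjusted p under 0.05, beside 9.45% of all genes. None passed by edgeR adjusted over all genes or by DESeq2. Their summed level was 1455 to 1704 CPM in Rar mutants, 1133 to 1348 in controls and 1283 to 1353 in Dmrt1 het Rar mutants, so Rar mutants lay above all controls. Granulosa markers differed between the same groups. In Rar mutants against controls all 10 had negative log2 fold changes (median -0.66). Of these, 3 had an unadjusted edgeR p under 0.05, beside 9.45% of all genes. In Dmrt1 het Rar mutants 7 of 10 were positive (median 0.19). Between the mutants all 10 had positive values for the Dmrt1 het Rar mutants (median 0.82). Unadjusted edgeR p was under 0.05 for 6 of them, beside 16.9% of all genes. These markers summed to 5014 and 5351 CPM in Dmrt1 het Rar mutants, 2528 to 4011 in Rar mutants and 3232 to 7580 in controls. Their part in the Vegfa and hypoxia values, and in the differences of Emcn, Ecscr, Icam2 and Apln between the mutants, was not tested. The glycolytic enzyme gene Pgk1 was at 264, 428 and 310 CPM in Rar mutants and 173 to 257 in controls (log2 0.62, SE 0.184, edgeR adjusted p = 0.256). Between the title-number sets edgeR called 3 of the 17 lower and 1 higher in the lower-numbered libraries, beside 27.5% of all genes. Pgk1 was among the lower ones (log2 -0.65, SE 0.167, edgeR adjusted p = 0.0176). The part of the title numbers in the hypoxia values was not tested.

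The VEGF receptors Kdr, Flt1 and Flt4 and the co-receptors Nrp1 and Nrp2 did not separate the groups. Log2 fold changes in Rar-deleted ovaries were -0.35 to 0.16, with 3 of 5 positive and none with an unadjusted p under 0.05. Kdr was at 31.5 to 65.5 CPM in controls and 33.8 to 75.7 in Rar-deleted ovaries, and Flt4, the receptor for Vegfc on lymphatic endothelium, at 23.04 to 32.8 and 22.2 to 44.6. The most negative was that of Nrp2, at 46.7 to 65.9 CPM in controls and 30.1 to 54.3 in Rar-deleted ovaries.

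Of the angiopoietin system, Angpt2 (ENSMUSG00000031465, chromosome 8, 18690263 to 18741562), the ligand released by endothelium under remodelling, had the smallest p of the 4 genes. It was at 51.8, 29.03, 57.8, 34.0 and 34.6 CPM in controls, at 50.4, 52.5 and 61.2 in Rar mutants and at 72.6 and 70.7 in Dmrt1 het Rar mutants. All 5 Rar-deleted ovaries were above the control mean of 41.5, and controls 1 and 3 reached the range of the Rar mutants. The log2 fold change was 0.57 in Rar-deleted ovaries (SE 0.203, edgeR adjusted p = 0.527) and 0.78 in Dmrt1 het Rar mutants (SE 0.241, edgeR adjusted p = 0.243; DESeq2 adjusted p = 0.101). Angpt1 was at 17.3 to 30.3 CPM in controls and 12.7 to 46.8 in Rar-deleted ovaries, Tek at 19.2 to 35.7 and 16.5 to 24.7, and Tie1, its co-receptor, at 24.9 to 43.7 and 22.96 to 39.9. For these 3 genes control 1 was the highest control.

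In the Notch and apelin group all 4 genes had negative log2 fold changes in Rar-deleted ovaries, with a median of -0.42. Aplnr (ENSMUSG00000044338, chromosome 2, 85136225 to 85139923), the apelin receptor of veins and sprouts, was at 30.7, 20.02, 17.1, 23.5 and 24.2 CPM in controls. It was at 17.3, 19.0 and 12.2 CPM in Rar mutants and at 13.1 and 19.7 in Dmrt1 het Rar mutants, all below the control mean of 23.1 and overlapping only with control 3. The log2 fold change was -0.52 in Rar mutants (SE 0.231, edgeR adjusted p = 0.523). The Notch receptor Notch4 was at 6.70 to 10.6 CPM in controls and 4.29 to 8.28 in Rar-deleted ovaries, and the ligand Dll4 at 4.499 to 7.24 and 3.19 to 7.45.

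Apln (ENSMUSG00000037010, chromosome X, 48025146 to 48034853), the apelin peptide gene of tip cells, had the widest spread among controls. It was at 19.0, 42.5, 4.09, 34.0 and 30.01 CPM in controls, at 67.1, 24.4 and 11.2 in Rar mutants and at 5.96 and 4.197 in Dmrt1 het Rar mutants. Control 3 was thus as low as the Dmrt1 het Rar mutants. The log2 difference between Dmrt1 het Rar mutants and Rar mutants was -2.76 (SE 0.929, edgeR adjusted p = 0.231), and -1.82 without Rar mutant 1.

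**Figure D4:**
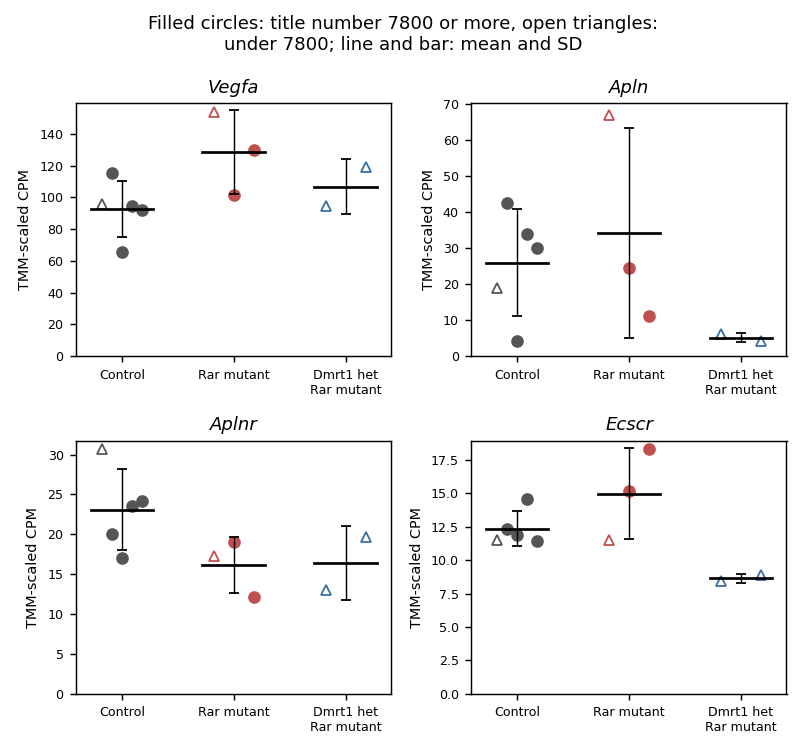
TMM-scaled CPM per library for the ligand genes Vegfa and Apln, the apelin receptor gene Aplnr and the surface gene Ecscr, by group, with lines for the mean, bars for the SD and open triangles for title numbers under 7800. Vegfa is highest in Rar mutant 1 at 154 CPM, and Apln spans 4.09 to 67.1 CPM with control 3 beside the 2 Dmrt1 het Rar mutants.

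Both lymphatic genes had positive log2 fold changes in Rar-deleted ovaries, and neither passed the edgeR threshold. Lyve1 (ENSMUSG00000030787, chromosome 7, 110850607 to 110863239) was at 8.76, 6.67, 9.13, 8.38 and 7.45 CPM in controls, a narrow range. Rar mutants 1 to 3 were at 13.3, 20.8 and 53.0 CPM and Dmrt1 het Rar mutants at 11.4 and 21.1, so every Rar-deleted ovary lay above every control and Rar mutant 3 lay far above the rest. In Rar-deleted ovaries Lyve1 was 2.96-fold higher (log2 1.57, SE 0.370, edgeR adjusted p = 0.251), and DESeq2 gave an adjusted p of 0.00795. The value was 1.85 in Rar mutants (SE 0.374, edgeR adjusted p = 0.106; DESeq2 adjusted p = 0.000659) and 1.00 in Dmrt1 het Rar mutants (SE 0.422, edgeR adjusted p = 0.271). In the authors' deposited table of 185 genes it is the only one of the 36, at 1.35 on the log2 scale (SE 0.282, adjusted p = 0.000716).

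Single libraries moved the size and the call for Lyve1. Without Rar mutant 3, the library of high ovulation genes, the log2 fold change was 1.04 in Rar-deleted ovaries (edgeR adjusted p = 0.159) and 1.07 in Rar mutants (edgeR adjusted p = 0.322). Without Rar mutant 1 it was 2.19 in Rar mutants (edgeR adjusted p = 0.00808). In the 6 libraries of higher title number it was 2.22 (SE 0.329, edgeR adjusted p = 0.0340). Macrophage markers were given because some macrophages carry Lyve1. Their summed level over 9 genes was 272 to 559 CPM in controls and 249 to 468 in Rar-deleted ovaries, with 279 in Rar mutant 3. This sum does not show the level of those macrophages that carry Lyve1. The part of macrophages in the Lyve1 values, and of the ovulation genes in the value of Rar mutant 3, was not tested.

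Prox1 (ENSMUSG00000010175, chromosome 1, 190118035 to 190170714), singled out as the other lymphatic gene, was at 8.92, 7.47, 3.72, 3.48 and 5.57 CPM in controls. It was at 9.58, 10.05 and 6.82 CPM in Rar mutants and at 9.43 and 13.4 in Dmrt1 het Rar mutants, with controls 1 and 2 overlapping Rar mutant 3. The log2 fold change was 0.76 in Rar-deleted ovaries (SE 0.281, edgeR adjusted p = 0.548). Against controls it was 0.96 in Dmrt1 het Rar mutants, and 0.56 with the title-number set as a term. Of 9 further lymphatic genes, none passed by edgeR in the 4 genotype comparisons. DESeq2 called 1 in each comparison of the Dmrt1 het Rar mutants, beside 1.78% of all genes against controls and 3.66% against Rar mutants. In Rar-deleted ovaries 3 of the 9 had an unadjusted p under 0.05, beside 8.47% of all genes. Of the 9 log2 fold changes there 5 were positive, with a median of 0.02. The extracellular matrix gene Mmrn1 was at 25.4 to 49.1 CPM in controls and 45.5 to 59.2 in Rar-deleted ovaries (log2 0.57, SE 0.170, edgeR adjusted p = 0.441). Reln, a secreted glycoprotein of lymphatic and other cells, was at 13.5 to 35.9 CPM in controls, 26.1 to 42.2 in Rar mutants and 67.7 to 78.7 in Dmrt1 het Rar mutants (log2 1.75 for the last against controls, SE 0.312, edgeR adjusted p = 0.156).

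**Figure D5:**
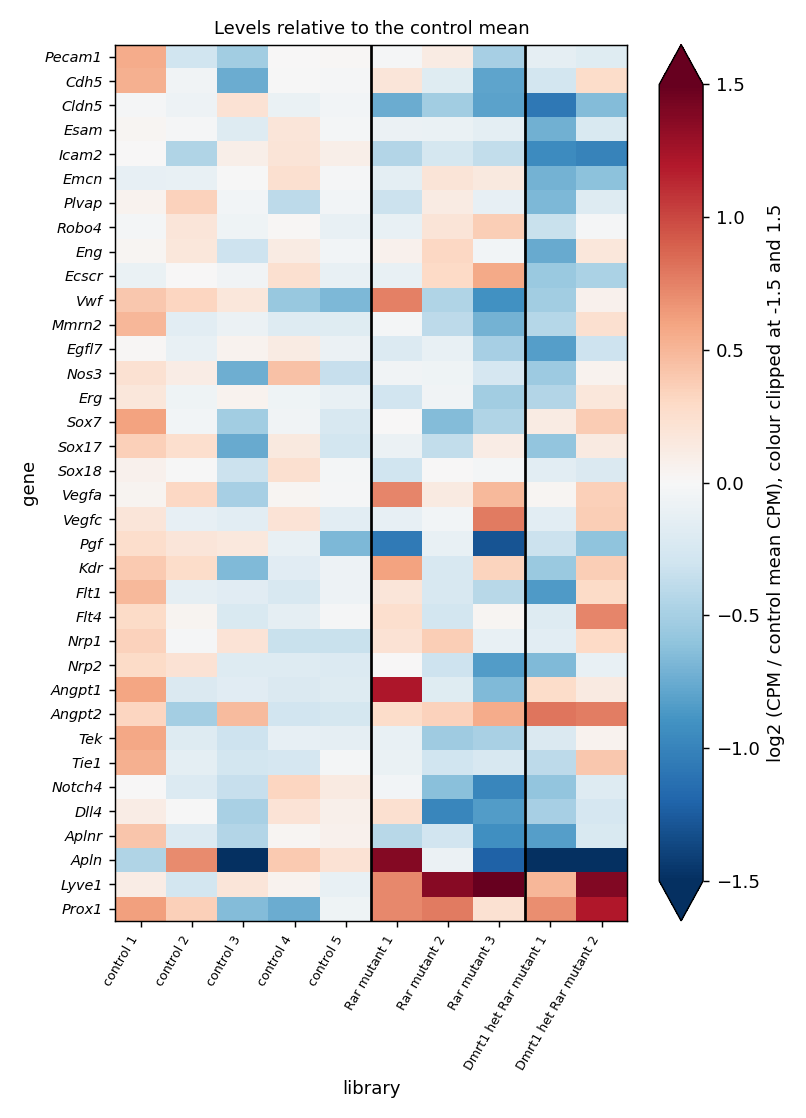
Log2 ratio of each library's CPM to the control mean for the 36 genes, rows in order of role and columns by library, with black lines between the groups and colours clipped at the ends of the scale. Lyve1 is red in all 5 Rar-deleted ovaries and Cldn5 blue, and control 1 is red for many receptors while Dmrt1 het Rar mutant 1 is blue for most surface genes.

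The title-number sets were compared in a fit with Rar deletion as a term. There edgeR called 6 of the 36 between the 4 libraries of lower and the 6 of higher title number, beside 27.5% of the 19409 genes tested, so the share of vessel genes called was below that of all genes. Of the 36, 5 were higher in the lower-numbered libraries: Tek (log2 0.56, SE 0.114, edgeR adjusted p = 0.00686), Angpt1 (0.93, SE 0.223, 0.0132), Sox7 (0.75, SE 0.181, 0.0136), Mmrn2 (0.55, SE 0.148, 0.0206) and Cdh5 (0.60, SE 0.193, 0.0404). Ecscr was lower there (-0.53, SE 0.174, edgeR adjusted p = 0.0437). Angpt1 was at 30.3, 46.8, 24.2 and 22.1 CPM in control 1, Rar mutant 1 and Dmrt1 het Rar mutants 1 and 2, above the 12.7 to 17.9 CPM of all others. With the 3 groups as terms in place of Rar deletion, 2 of the 6 calls remained (Tek and Angpt1), and without Dmrt1 het Rar mutant 2 there were 3 (Tek, Angpt1 and Sox7). Without control 1, the edgeR adjusted p was 0.0731 for Tek, 0.0798 for Sox7, 0.123 for Mmrn2 and 0.188 for Cdh5. Without Rar mutant 3 it was 0.152 for Ecscr and 0.108 for Cdh5. For Ecscr the edgeR adjusted p ran from 0.0252 (without control 1) to 0.152 with any 1 library left out, and was 0.220 with the 3 group terms. Both Dmrt1 het Rar mutants have lower title numbers, so the title numbers and Dmrt1 heterozygosity are told apart only by control 1 and Rar mutant 1.

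Further genes of the same pathways were looked at from lists, which were also chosen with earlier results of these data known. Of 29 other VEGF, angiopoietin and Notch genes, none passed adjusted over all genes in the 4 genotype comparisons, and log2 fold changes in Rar-deleted ovaries were positive for 15 and negative for 14. Unadjusted edgeR p was under 0.05 for 3 of the 29 in Rar-deleted ovaries, 4 in Rar mutants and 3 in Dmrt1 het Rar mutants against controls, and DESeq2 called 0, 2 and 0. In this order the shares of all genes were 8.47%, 9.45% and 17.3% by unadjusted p, and 0.745%, 1.74% and 1.78% by DESeq2. The nearest in Rar mutants were Bmper, a secreted regulator of BMP signalling in endothelium, at 27.1, 52.3 and 58.9 CPM against 8.81 to 22.5 in controls (log2 1.66, SE 0.308, edgeR adjusted p = 0.0929), and Vegfd, a lymphatic growth factor, at 10.3, 14.9 and 12.4 against 5.44 to 7.62 (log2 1.02, SE 0.189, edgeR adjusted p = 0.0929). In Rar-deleted ovaries the log2 fold change of Bmper was 1.21 (SE 0.417, edgeR adjusted p = 0.515). The authors' deposited table lists Bmper at 1.28 on the log2 scale (SE 0.268, adjusted p = 0.000764). Dmrt1 het Rar mutants were at 13.5 and 16.1 CPM for Bmper and at 5.20 and 6.85 for Vegfd, within or near the control range, and against Rar mutants Vegfd differed by -1.07 (SE 0.250, edgeR adjusted p = 0.195).

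Of 34 other endothelial genes none passed by edgeR either, with 16 positive and 18 negative log2 fold changes in Rar-deleted ovaries and a median of -0.03. Unadjusted p was under 0.05 for 3 in Rar-deleted ovaries and 6 in Rar mutants, beside 8.47% and 9.45% of all genes. DESeq2 called 0 and 1 there, beside 0.745% and 1.74% of all genes. Sema3g, a semaphorin of arterial endothelium, was at 35.7, 44.4 and 51.4 CPM in Rar mutants, 60.7 to 106 in controls and 98.4 and 103 in Dmrt1 het Rar mutants (log2 -0.88 in Rar mutants against controls, SE 0.205, edgeR adjusted p = 0.148). The sialomucin Cd34 was at 90.2, 184 and 144 CPM in Rar mutants and 71.9 to 102 in controls (log2 0.72, SE 0.206, edgeR adjusted p = 0.234). Of 10 angiogenesis inhibitors none passed by edgeR in the 4 genotype comparisons, with 1 at an unadjusted p under 0.05 in each of the 3 comparisons with controls. DESeq2 called 0 in Rar-deleted ovaries, 1 in Rar mutants and 1 in Dmrt1 het Rar mutants. In this order the shares of all genes were 8.47%, 9.45% and 17.3% by unadjusted p, and 0.745%, 1.74% and 1.78% by DESeq2. Adamts1, a protease that is also a gene of ovulation, was at 618 and 169 CPM in Rar mutants 2 and 3 and at 20.7 to 55.3 in all other libraries (log2 3.14 in Rar mutants, SE 0.653, edgeR adjusted p = 0.107). In Rar-deleted ovaries the log2 fold change of Adamts1 was 2.56 (SE 0.760, edgeR adjusted p = 0.437). The authors' deposited table lists it at 1.20 on the log2 scale (SE 0.304, adjusted p = 0.0117). Rar mutants 2 and 3 were also the 2 libraries of highest ovulation genes. The 12 mural cell genes, of the pericytes and smooth muscle around vessels, summed to 634 to 1148 CPM in controls, 716 to 1155 in Rar mutants and 596 to 775 in Dmrt1 het Rar mutants. In the Dmrt1 het Rar mutants 10 of these 12 had negative log2 fold changes with a median of -0.38 and none an unadjusted p under 0.05. Both of these libraries have lower title numbers. Between the title-number sets edgeR called 4 of the 12 lower and 1 higher in the lower-numbered libraries, beside 27.5% of all genes. The median log2 difference there was -0.52.

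Blood cell markers were compared because vessels carry blood. Summed over 7 erythroid genes, levels were 298.5 to 1639 CPM in controls, 471, 1998 and 2706 in Rar mutants 1 to 3 and 374 to 597.5 in Dmrt1 het Rar mutants. The 6 platelet genes summed to 6.17 to 15.3 CPM in controls and 6.54 to 7.70 in Dmrt1 het Rar mutants. Lyve1 was at 20.8 and 53.0 CPM in Rar mutants 2 and 3. It was at 21.1 CPM in Dmrt1 het Rar mutant 2, where the erythroid sum was 597.5 CPM. Control 3, at 1639 CPM erythroid, was at 9.13 CPM for Lyve1. Between the title-number sets edgeR called all 5 erythroid genes tested lower in the lower-numbered libraries, beside 27.5% of all genes. Rar mutant 1 and control 1 have lower title numbers, and Rar mutants 2 and 3 have higher ones. The part of blood cells in the Lyve1 result, and of the title numbers in the erythroid levels of Rar mutants, was not tested.

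Markers of the other ovarian cells gave no call by edgeR in the 4 genotype comparisons either. In Dmrt1 het Rar mutants against controls DESeq2 called 4 of the 10 surface epithelium genes, beside 1.78% of all genes. There 8 of the 10 had an unadjusted edgeR p under 0.05, beside 17.3% of all genes. In Rar-deleted ovaries log2 fold changes were negative for all 10 oocyte genes (median -0.41), for 7 of 10 granulosa genes (median -0.19), for 4 of 5 theca genes (median -0.47) and for 3 of 7 corpus luteum genes (median 0.06). They were positive for all 10 immediate early genes (median 1.14), whose summed level was 1466 CPM in Rar mutant 3 and 134 to 299 in the other libraries. Of the adipocyte genes 5 were tested, 3 of them negative (median -2.30). The summed level over all 8 adipocyte genes was 13.5 to 79.7 CPM in controls and 17.2 to 78.8 in Rar-deleted ovaries. Values of vessel genes that rest on Rar mutant 3 stand beside these differences, whose part was not tested.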

How the data were processed

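RNA was measured by stranded polyA RNA-seq of whole gonads. The submitters' processing notes name Trimmomatic 0.32, STAR 2.4.2a, SAMtools 1.0, DESeq2 1.12.3 and the build GRCm38; the counter and annotation release are not given in the sources used here. The authors deposited raw counts per gene and, for the same libraries, normalised FPKM, which were used only to compare levels between genes. The authors' deposited table of 185 genes gives, per the file headers, a log2 fold change with its error, a Wald score, a p-value with its adjusted value, and a mean count as normalised signal. These headers name neither the groups compared nor the way the fold changes were estimated. The sizes of the authors' fold changes therefore cannot be compared directly with those of the fits here.

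Counts were scaled by TMM, filtered with filterByExpr and tested two-sided with edgeR 4.0.16 (R 4.3.3, quasi-likelihood, robust), with Benjamini-Hochberg adjustment over all genes tested; SE is the log2 fold change over the root of F. Rar-deleted against control was fitted with 2 groups and the others with 3 groups. DESeq2 1.42.0 was an alternative. The fits were tested on simulated data. The labels do not say that libraries came from separate animals, so p-values measure the spread between these samples. The 36 genes and the 17 further lists were chosen with earlier results of these data known. Named with full statistics were, per comparison, the genes called or else the 4 of smallest p. Egfl7, Esam and Prox1 were added after their values were seen. Of the lists, only some of the 2 genes of smallest p per comparison were named. Left out were, among others, Sele in Rar-deleted ovaries, Ndrg1 in Rar mutants and Serpinf1 in Dmrt1 het Rar mutants (edgeR adjusted p = 0.335, 0.251 and 0.243). Positions are from GENCODE M21.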

Additional observations from a re-analysis of the deposited data

Results flagged for a closer look

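A sample far from the others of its group was looked for in the 36 genes, among the 5 controls and among the 5 Rar-deleted ovaries. It was found in 9 of 72 groups of values. The 36 genes come from the same libraries and no share over all genes is given, so this count is not set against chance. Of the 9, 5 were control 1. Control 1 was at 25.9 CPM for Mmrn2 (other controls 16.1 to 17.3), at 29.5 for Flt1 (17.97 to 20.1), at 30.3 for Angpt1 (17.3 to 17.9), at 35.65 for Tek (19.2 to 22.0) and at 43.7 for Tie1 (24.9 to 29.4). It is the only control with a lower title number. Control 3 was at 40.6 CPM for Cldn5, above the other controls at 32.65 to 34.5, and control 4 at 43.6 for Emcn, above 34.0 to 36.7. Dmrt1 het Rar mutant 1 was at 23.01 CPM for Esam, below the other Rar-deleted ovaries at 32.4 to 35.6. Rar mutant 3 was at 53.0 CPM for Lyve1, above the other Rar-deleted ovaries at 11.4 to 21.1.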

How the results depend on the processing

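With edgeR 0 of the 36 genes were called in each of the 4 genotype comparisons, and the same held with RLE size factors and without the filter on low counts. DESeq2 called 2 in Rar-deleted ovaries, 2 in Rar mutants, 3 in Dmrt1 het Rar mutants against controls and 2 between the mutants. Using only title numbers of 7800 or more, 1 was called (Lyve1) in Rar-deleted ovaries and in Rar mutants, which are there the same libraries. Leaving out 1 library at a time gave 0 to 1 in Rar mutants (Lyve1 without Rar mutant 1), 0 to 1 in Dmrt1 het Rar mutants (Cldn5 without control 1) and 0 to 1 between the mutants (Emcn without Rar mutant 1). Between title-number sets 6 were called, 2 with 3 group terms and 3 to 8 with 1 library left out. No direction of a named gene reversed: 309 values kept their side of the threshold, 14 newly passed it and 21 no longer did. With the replicate number as a block 0 of the 36 were called in all 4 comparisons. Same-numbered libraries correlated with r of 0.0114 to 0.442 in their deviations from group means, and r was over 0.1 for 2 of the 5 mutant libraries. Since not every pair was over 0.1 and the labels tie the numbers to no animal or litter, the numbers were not taken as pairs. Of the 5, 4 (all but Rar mutant 2) correlated best with the control of their number. The 2 Dmrt1 het Rar mutants deviate from their own mean by opposite amounts, so their matches are not separate. Rar mutant 1 and control 1 are each the only library of their group with a lower title number. These matches therefore cannot decide whether the numbers are pairs.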
